A study of Homo sapiens with 6 samples.

Results

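The regulators of G protein signalling described here are 8 of 20046 human genes on an Illumina bead array, RGS1, RGS2, RGS3, RGS10, RGS13, RGS14, RGS16 and RGS19, which 15 of its 47323 probes measured. They were taken by symbol. RGS1 was selected on its log2 fold change with 3-AP, which had been seen in an earlier pass over these arrays, and the other members were added as family genes known from B lineage cells. The change of RGS1 with 3-AP is therefore given as a description, without a test, and the same is done for the other members in that contrast. Members without signal were kept in the account: 5 of the 8 passed the filter for low signal (above background on at least 3 of the 6 arrays), and RGS3, RGS13 and RGS14 did not.

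The arrays came from BCP1, BCBL1 and BC1, established cell lines of primary effusion lymphoma, a B lineage tumour that carries the Kaposi sarcoma herpesvirus. Each line was cultured for 48 h with vehicle or with 2.5 µM 3-AP (triapine), an inhibitor of ribonucleotide reductase. This gave 1 vehicle and 1 treated array per line, 3 per group, and nothing in the labels tells of further cultures. Errors (SE) and intervals are the moderated ones of limma, in which the spread between the 3 pairs is drawn towards that of all features. BC1 also carries the Epstein-Barr virus, and BCP1 and BCBL1 do not.

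A G protein coupled receptor switches on a heterotrimeric G protein by loading its alpha subunit with GTP, and the signal ends when GTP is hydrolysed. RGS proteins speed up that hydrolysis and so act as brakes on chemokine, lipid and other receptors. RGS1, RGS2, RGS3, RGS13 and RGS16 belong to the small R4 subfamily, RGS10 and RGS14 to the R12 subfamily and RGS19 to the RZ subfamily. In B cells RGS1 and RGS13 are known for restraining the response to chemokines, and RGS13 is a marker of germinal centre cells.

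In RefSeq's gene order on chromosome 1, RGS18, RGS21, RGS1, RGS13 and RGS2 follow each other with no other protein-coding gene between them, and RGS16 lies elsewhere on the same chromosome. The 250 bases before the annotated start of RGS1, RGS2 and RGS16 are shown because these were the members above vehicle with 3-AP in all 3 lines, a choice made after their values were seen. They are from RefSeq (GRCh38.p14), read 5′ to 3′ along the gene. RGS1 is chr1:192575523-192575772 on the plus strand, RGS2 is chr1:192808789-192809038 on the plus strand and RGS16 is chr1:182604390-182604639 on the minus strand. Capitals mark matches to the motifs searched.
RGS1: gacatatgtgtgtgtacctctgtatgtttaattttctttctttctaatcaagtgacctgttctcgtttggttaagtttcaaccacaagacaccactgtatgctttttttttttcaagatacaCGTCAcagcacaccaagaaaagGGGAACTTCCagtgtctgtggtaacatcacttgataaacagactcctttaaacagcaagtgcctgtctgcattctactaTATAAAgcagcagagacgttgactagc
RGS2: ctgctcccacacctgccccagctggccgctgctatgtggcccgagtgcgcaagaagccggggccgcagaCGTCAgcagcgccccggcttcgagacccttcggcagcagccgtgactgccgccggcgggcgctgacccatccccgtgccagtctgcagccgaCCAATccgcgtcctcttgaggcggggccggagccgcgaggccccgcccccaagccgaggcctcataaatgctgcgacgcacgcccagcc
RGS16: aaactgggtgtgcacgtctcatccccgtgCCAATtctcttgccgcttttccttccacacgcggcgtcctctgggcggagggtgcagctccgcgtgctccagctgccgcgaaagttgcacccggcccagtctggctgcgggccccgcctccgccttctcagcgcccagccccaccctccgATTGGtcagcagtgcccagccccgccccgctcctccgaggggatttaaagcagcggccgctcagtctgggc

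The letters searched, on both strands, were TGANTCA for AP-1, TGACG for the core of a cyclic AMP response element and TATAAA for the TATA box. The kappa B site, the CArG box and the CCAAT box, whose name gives its letters, were searched as well. No match overlapped another. The RGS1 stretch held a TATA box that began 27 bases before the start, a kappa B site that began 106 bases before it and a cyclic AMP core at 128 bases. Matches to these motifs occurred in 10.7%, 9.96% and 21.2% of 35116 promoter stretches of the same length. RGS2 held a CCAAT box and a cyclic AMP core, and RGS16 held 2 CCAAT boxes, a motif found in 32.0% of all stretches. AP-1 letters occurred in 6.57% and CArG letters in 1.16% of all stretches and in none of these 3. A match in letters is a description and not a binding site.

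Before the results, 2 features of the deposited tables bear on what follows. In the table before normalization, the columns labelled BCP1 repeated the values of BCBL1, so that detection p-values of their own exist for 4 arrays, on which 37.0% to 39.2% of probes were above background (detection p under 0.05). For BCP1, a probe counted as above background within the top 38.12% of signals, and its background was imputed from the other arrays. In the normalized table the vehicle arrays labelled BCP1 and BCBL1 differed at least 4-fold at 0 of 47310 probes, against 264 for BCP1 and BC1. Whether the arrays labelled BCP1 and BCBL1 come from different lines could not be settled from the files, so the number of lines and of pairs is that of the labels. Without BCP1, the mean log2 fold change with 3-AP was 2.09 for RGS1, 0.92 for RGS2 and 0.92 for RGS16, and without BCBL1 it was 2.32, 0.88 and 0.96. Values are given first as deposited intensities, on a linear scale that still holds the background of the array, and then as log2 levels after background subtraction, where changes of dim probes are larger. Levels are compared only within a probe.

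The lines had the marker pattern of late B lineage cells. Of 12 plasma cell markers 7 were above background on all 6 arrays, among them IRF4, PRDM1, SDC1 and XBP1, and 3 were on none. Of 11 mature B cell markers on the array 3 were above background on all arrays (CD74, CIITA and HLA-DRA) and 4 were on none. Of 7 germinal centre markers 1, MYBL1, was above background on all arrays and 4 were on none. RGS1 is also abundant in T cells. Of 11 T and NK cell markers 0 were above background on all arrays and 8 were on none, CD3D and CD3E among them. CD2 and CD7 were above background on the 4 arrays of BCP1 and BCBL1, at 185.9 to 257.9, and not in BC1, and CD3G was on the BC1 vehicle array. Summed over the 11, the brightest probe of each, the intensity was 1472.3 to 1800.0 with vehicle and 1471.8 to 1736.4 with 3-AP. The part of such cells in the RGS results was not tested. Of 8 myeloid markers 3, AIF1, CD68 and LYZ, were above background on all arrays.

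RGS1 was higher with 3-AP than with vehicle in each line, and most so in BC1. Its probe was above background on 1 of 3 vehicle arrays, that of BC1, and on all 3 arrays with 3-AP, so it passed the filter for low signal mainly through the treated arrays. Its deposited intensity was 155.9 in BCP1 with vehicle and 285.1 with 3-AP. In BCBL1 it was 141.5 with vehicle and 209.1 with 3-AP. In BC1 it was 347.2 with vehicle and 1439.7 with 3-AP. The 3-AP array was therefore the higher one in every line, but the groups overlapped, because the BC1 vehicle array lay above the BCP1 and BCBL1 arrays with 3-AP. In RNA of whole cultures, a larger share of cells with the transcript and more transcript per cell cannot be told apart.

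In the deposited table the RGS1 ratio of 3-AP to vehicle was 1.83 in BCP1, 1.48 in BCBL1 and 4.15 in BC1, with a mean log2 fold change of 1.16 ± 0.25 (SE, n = 3 pairs). This moderated SE is narrower than the 3 lines alone would give, as the SD between lines was 0.79. After background subtraction the log2 fold changes were 2.13, 1.67 and 2.50, with a mean of 2.10 ± 0.19, which is 4.30-fold against 2.24-fold in the deposited table. The size of the fold thus depended on the background step, and more so in the lines where the vehicle array was not above background. Set against the lowest signal that counted as detected there (an imputed limit for BCP1), RGS1 was at least 1.80-fold higher with 3-AP in BCP1 and at least 1.27-fold higher in BCBL1 in the deposited table. These bounds were 4.19-fold and 2.15-fold after background subtraction. In the signals before normalization, RGS1 read 139.5 and 214.3 in BCBL1 and 315.6 and 1280.7 in BC1, a ratio of 1.54 and 4.06.

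**Figure D1:**
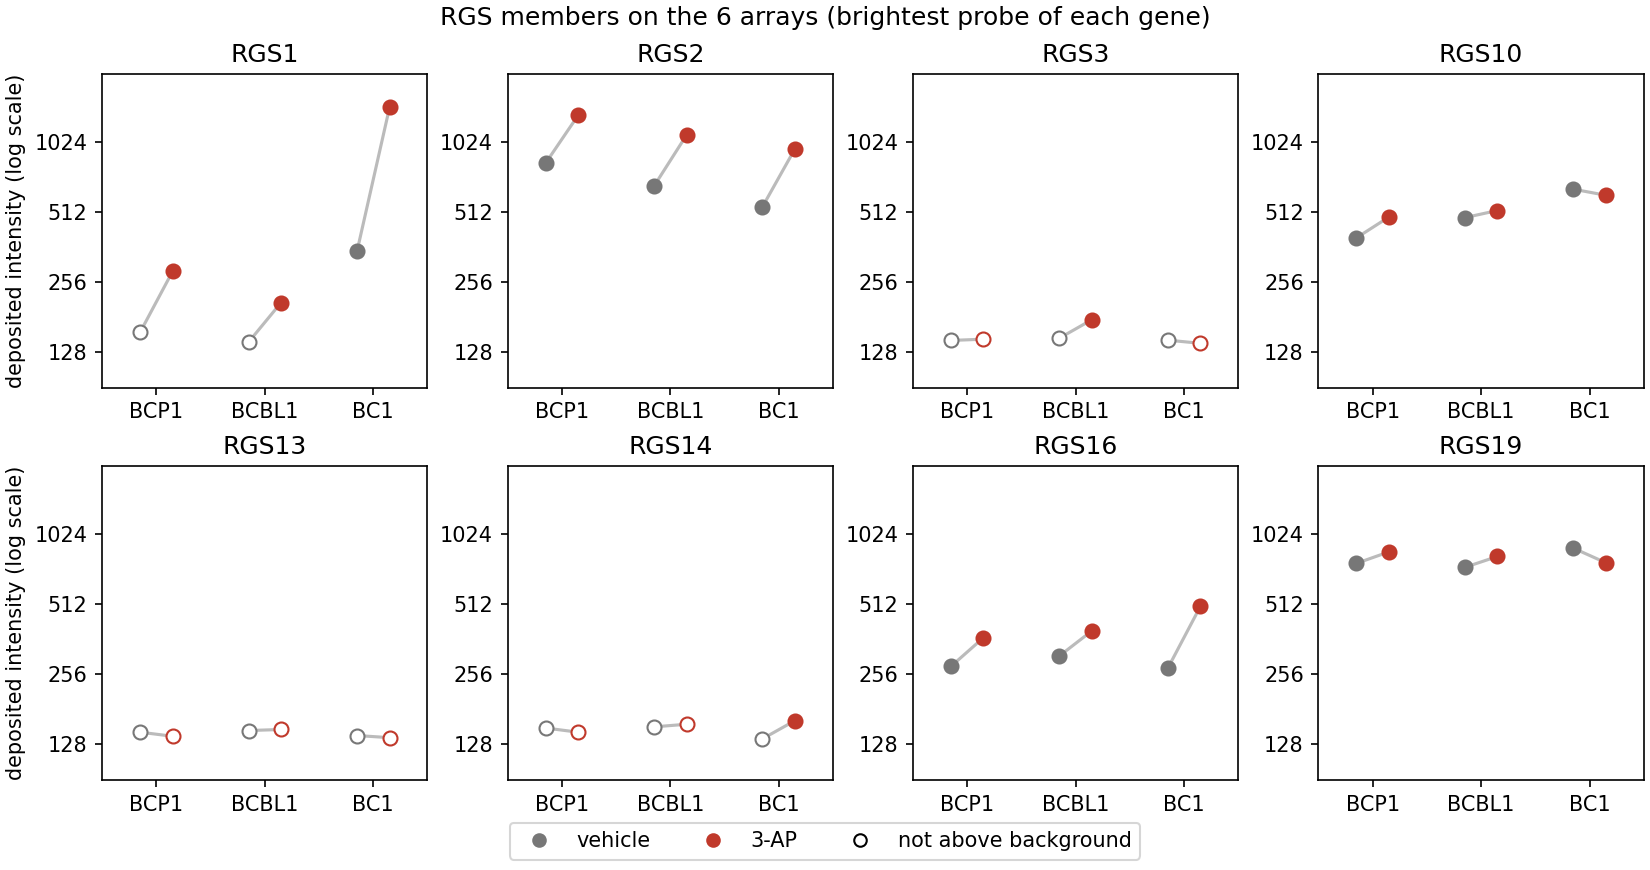
Deposited intensity (log scale) of the brightest probe of each of the 8 RGS genes on the 6 arrays, by cell line. Grey points are vehicle, red points are 3-AP, a line joins the pair of arrays of a cell line, and open points were not above background. RGS1 runs from 347.2 to 1439.7 in BC1, RGS2 and RGS16 are higher with 3-AP in each line, and both arrays of every line have open points for RGS13.

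RGS2, which acts mainly on Gq and lies next to RGS13 in the RGS1 cluster, was above background on all 6 arrays. Its deposited intensity with vehicle and 3-AP was 829.4 and 1331.3 in BCP1, 661.3 and 1095.6 in BCBL1, and 538.9 and 957.0 in BC1. All 3 arrays with 3-AP lay above all 3 vehicle arrays, so the groups did not overlap. After background subtraction the differences between the arrays of a line, 0.76, 0.85 and 1.00 on the log2 scale, were close to each other, with a mean of 0.87 ± 0.12 (SE, n = 3 pairs), or 1.83-fold. In the deposited table the mean was 0.75 ± 0.08, or 1.68-fold. The size of the RGS2 change thus depended less on the background step and on the line than that of RGS1. The shift of its mean with the background step still exceeded the SD between lines, which was 0.12 after background subtraction.

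RGS16, a member known to be induced in activated lymphocytes, was also above background on all 6 arrays. It read 276.8 with vehicle and 367.9 with 3-AP in BCP1, 307.0 and 393.5 in BCBL1, and 271.9 and 500.9 in BC1. The groups did not overlap, and the BC1 array with 3-AP was the highest. The log2 difference was 0.66, 0.58 and 1.26 after background subtraction, with a mean of 0.83 ± 0.18 (SE, n = 3 pairs), or 1.78-fold against 1.46-fold in the deposited table. BC1 thus gave the highest of the 3 changes for RGS1, RGS2 and RGS16, by a margin that rests on 1 array against 1 and was not tested.

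RGS10, an abundant regulator of leukocytes, and RGS19, also called GAIP, were above background on all arrays and differed little between 3-AP and vehicle. The brighter RGS10 probe read 396.5 and 487.4 in BCP1 with vehicle and 3-AP, 484.4 and 519.7 in BCBL1, and 641.8 and 604.5 in BC1. Its mean log2 fold change was 0.15 ± 0.15 (SE, n = 3 pairs), with a 95% interval of -0.22 to 0.53, and a dimmer kept RGS10 probe had -0.06. RGS19 read 766.6 and 859.1 in BCP1, 737.1 and 820.7 in BCBL1, and 891.6 and 771.6 in BC1, with a mean of 0.04 ± 0.15 and an interval of -0.33 to 0.41. For both genes the groups overlapped, and the 3-AP array was the higher one in BCP1 and BCBL1 and the lower one in BC1. Both intervals ended below the mean change of RGS2 and RGS16, which does not show that these genes were unaffected.

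**Figure D2:**
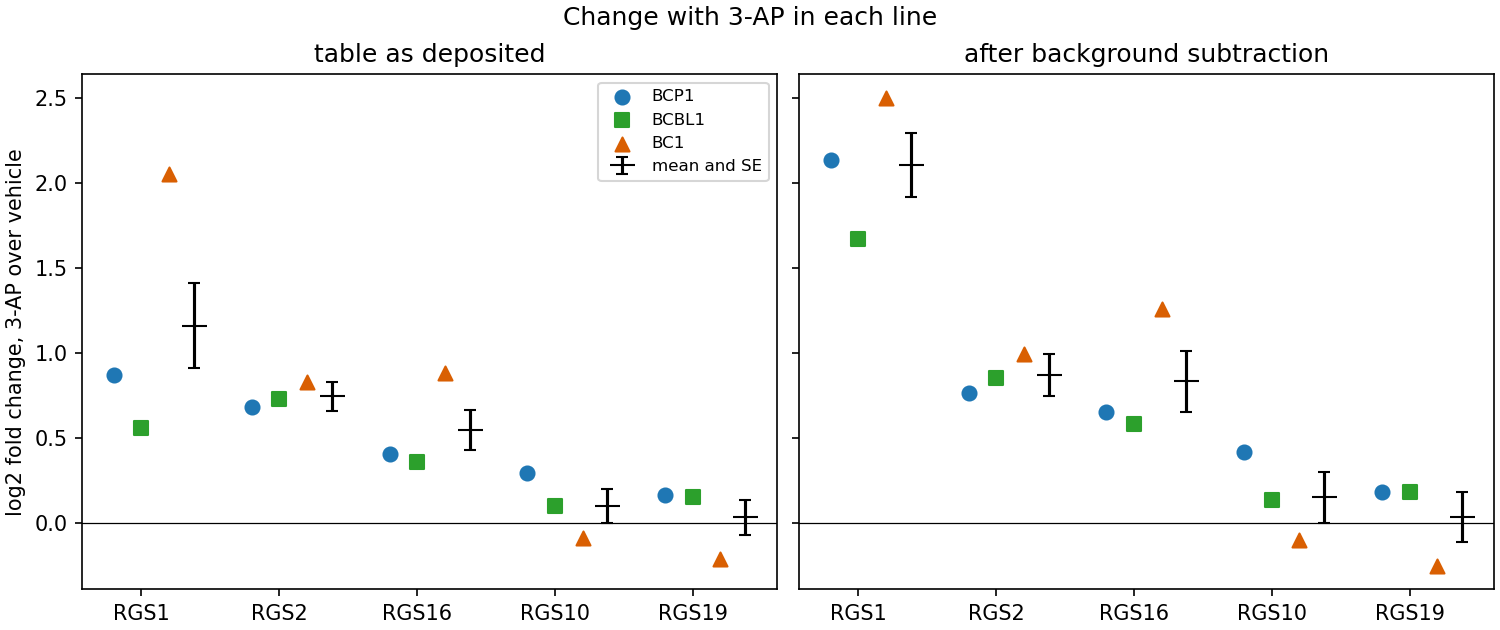
Log2 fold change of 3-AP over vehicle for the 5 measured members in each line, in the table as deposited and after background subtraction. Circles are BCP1, squares BCBL1, triangles BC1, and the bar is the mean with its SE. The RGS1 mean moves from 1.16 to 2.10 with the background step and the RGS2 mean from 0.75 to 0.87, while RGS10 and RGS19 lie on both sides of 0.

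Over all 14635 features, limma's paired test with Benjamini-Hochberg adjustment called 0.342% in either direction, and 1 of the 5 measured members, RGS1, was among them. In the deposited table it called 7.84%, and 3 members, RGS1, RGS2 and RGS16, were among them. The 3-AP array was above vehicle in all 3 lines for 3 of the 5 measured members, against 24.3% of all features. The groups did not overlap for 2 members, RGS2 and RGS16, against 8.06% of all features with 3-AP higher. Since the change with 3-AP chose RGS1, which passed the filter mainly through the 3-AP arrays, nothing is read from these counts.

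RGS3, RGS13 and RGS14 gave no level to compare. The 5 RGS3 probes read between 114.7 and 176.6, and each of 2 was above background on 1 array. Both RGS13 probes were above background on none, at 118.0 to 148.3, so the germinal centre member of the family was not detectable with these probes. RGS14, a scaffold that also binds Ras family GTPases, read 135.2 to 161.9 and was above background on 1 array, BC1 with 3-AP.

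Among other genes with a numbered RGS symbol, 10 of 13 on the array were above background on none. RGS17 was above background on 1 array and RGS21 on 2. RGS22, known mainly from testis, was the exception, above background on 4 arrays. It read 152.2 with vehicle and 308.7 with 3-AP in BCP1, 169.1 and 228.7 in BCBL1, and 142.2 and 198.0 in BC1, so the groups did not overlap. Its log2 fold change was 1.72 ± 0.25 (SE, n = 3 pairs), which did not pass the limma test (adjusted p = 0.0694), and 0.64 in the deposited table, where it passed (adjusted p = 0.0286). As for RGS1, 2 of its 3 vehicle arrays were not above background. RGS22 too passed the filter for low signal mainly through the treated arrays, so nothing is read from its adjusted p-values. RGS18, next to RGS21 at the other end of the RGS1 cluster and typical of platelets, was above background on no array.

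**Figure D3:**
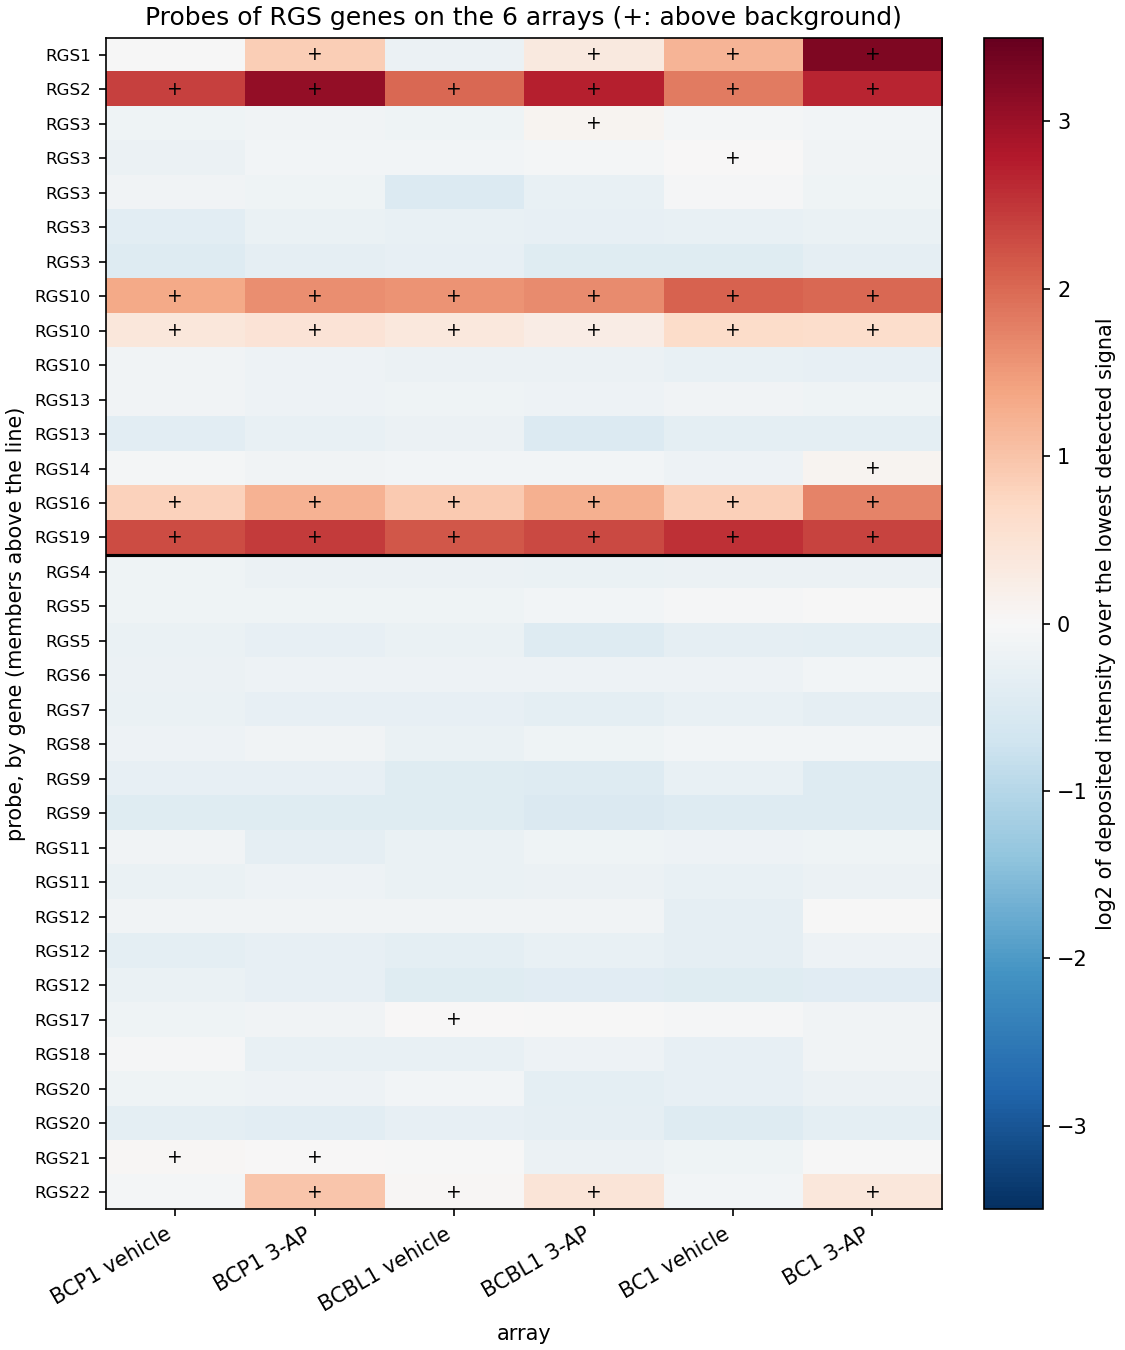
Deposited intensity of each of the 34 probes of 21 RGS genes on the 6 arrays, as log2 over the lowest signal that counted as detected on that array, with a plus sign where the probe was above background. Of the 15 member probes above the line, 5 carry a plus on all 6 arrays (RGS2, RGS16, RGS19 and both brighter RGS10 probes), and below it RGS22 carries 4.

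The next question was how the level of each member differed between lines, which had not served to choose the members. The test was limma's moderated F test with the vehicle and the 3-AP array as the 2 samples of a line. It called 20.2% of all features, and among the 5 measured members RGS1 alone. That count is near the share of all features, so nothing is read from it. RGS1 was highest in BC1, with a log2 level of 9.12 against 6.25 in BCP1 and 5.51 in BCBL1 (means of both arrays, which lay within 1.25, 1.07 and 0.84 of them). The vehicle arrays of BCP1 and BCBL1 were not above background for RGS1, so the means of those lines rest in part on background. With those arrays set at the lowest signal that counted as detected, BC1 was at least 8.44-fold above the mean of the other lines, or at least 3.57-fold in the deposited table (adjusted p = 0.00141 and 0.00395 by limma's F test on the measured values). On the vehicle arrays alone, with BCP1 and BCBL1 set at that lowest signal, it was at least 6.15-fold, or 2.16-fold in the deposited table. On the 3-AP arrays alone, all above background, it was 11.6-fold and 5.90-fold. Those arrays include the change on which RGS1 was chosen. Both comparisons rest on 1 array a line and carry no test. Without BCP1 the F test still called RGS1 (adjusted p = 0.000989). Without BC1 it compares BCP1 with BCBL1 alone, on vehicle arrays that were not above background, and its adjusted p was 0.300. RGS1 would not have passed the filter for low signal without the arrays of BC1, the line where it was high. Its F test is therefore not independent of that filter. With no detection filter the adjusted p of RGS1 by limma's F test was 0.00298.

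None of the other 4 measured members passed this test. RGS2 was lowest in BC1, at a log2 level of 9.20 against 9.81 in BCP1 and 9.56 in BCBL1 (limma adjusted p = 0.0893). RGS10 was highest there, at 8.96 against 8.27 in BCP1 and 8.61 in BCBL1 (limma adjusted p = 0.102). In the deposited table, where the median of all probes was the same on both arrays of a line but 146.0, 152.2 and 140.9 in BCP1, BCBL1 and BC1, both passed (limma adjusted p = 0.0154 for RGS2 and 0.0414 for RGS10), and 29.6% of all features were called there. RGS16 had 7.58, 7.81 and 7.93 in BCP1, BCBL1 and BC1 (limma adjusted p = 0.481) and RGS19 had 9.39, 9.41 and 9.46 (limma adjusted p = 0.953), and their levels lay within the spread between the arrays of a line.

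The rest of the pathway was read from lists of symbols. Of the ligands of B lineage chemokine and related receptors, 2 of 6 measured genes rose with 3-AP and 0 fell, against 0.246% and 0.0957% of all features, and 10 of 18 on the array were above background nowhere. The 2 were CCL3 and CCL3L1, close copies that encode inflammatory chemokines, at log2 fold changes of 3.02 ± 0.31 and 2.74 ± 0.27 (SE, n = 3 pairs, limma adjusted p = 0.0488 and 0.0476), against 1.79 and 1.44 in the deposited table. On the BC1 vehicle array CCL3 read 151.2 and CCL3L1 145.5, below the lowest signal that counted as detected there, 152.4. Their largest changes, 3.96 and 3.48 in BC1, thus rest in part on background. A further copy, CCL3L3, named after its values were seen, had 3.38 ± 0.38 and did not pass (limma adjusted p = 0.0524). As deposited, 4 of 6 passed, against 7.84% of all features, with CCL3L3 at 2.75 and the chemokine gene CCL5 at 0.92 (limma adjusted p = 0.00157 and 0.00443). After background subtraction CCL5 had 1.17 (limma adjusted p = 0.0640). The lists were drawn up with earlier results of these data known, and the CCL3 copies are not independent of each other. Nothing is therefore read from the counts of ligands. Of 12 measured receptors 0 passed in either direction, against 0.342% of all features. The 2 with the smallest raw p were PTGER2, a prostaglandin E2 receptor, at 0.69 ± 0.12 (limma adjusted p = 0.0806) and the chemokine receptor gene CCR2 at 0.62 ± 0.13 (limma adjusted p = 0.0947), with 0.28 and 0.11 on dimmer CCR2 probes. As deposited, 1 receptor passed, CXCR4, the receptor of CXCL12, named here after its values were seen, at -0.43 (limma adjusted p = 0.0376), which makes 1 of 12 against 7.84% of all features in that table. After background subtraction CXCR4 had -0.74 ± 0.16 and did not pass (limma adjusted p = 0.103), with -1.09, -0.64 and -0.48 in BCP1, BCBL1 and BC1.

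Among the G proteins themselves, 0 of 6 measured alpha subunits and 0 of 11 beta and gamma subunits passed, against 0.342% of all features. A count of 0 is near that share, so nothing is read from it, here or in the lists below. The medians of the log2 fold change were -0.17 and -0.14, with 5 of 6 and 8 of 11 negative, against 7501 of 14635 features. GNAI3, an inhibitory alpha subunit of the kind RGS1 acts on, had -0.72 ± 0.15 (SE, n = 3 pairs, limma adjusted p = 0.0940) and was lower in all 3 lines. In the deposited table it was the 1 alpha subunit that passed, at -0.50 (limma adjusted p = 0.0251), which makes 1 of 6 against the same 7.84%. GNAS, the stimulatory alpha subunit, had 0.27 ± 0.12, and the gamma subunits GNG7 and GNG2 had -0.41 ± 0.19 and -0.35 ± 0.18, with limma adjusted p = 0.248, 0.252 and 0.300.

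Of 9 measured effectors 0 passed, against 0.342% of all features, with a median log2 fold change of 0.01. PIK3CG, the PI3 kinase driven by beta and gamma subunits, had 0.84 ± 0.13 (SE, n = 3 pairs, limma adjusted p = 0.0700), and it was the 1 of 9 that passed in the deposited table, at 0.73 (limma adjusted p = 0.00841, against 7.84% of all features). A dimmer PIK3CG probe had 0.72. The adenylyl cyclase gene ADCY7 had 0.32 ± 0.12 (limma adjusted p = 0.206). Of 10 measured receptor kinases, arrestins and other regulators 0 passed, against the same 0.342%, with a median of 0.18. GPSM2, which binds inhibitory alpha subunits and takes part in orienting the mitotic spindle, had -0.65 ± 0.14 (limma adjusted p = 0.101), and -0.44 in the deposited table, where it was the 1 of 10 that passed (limma adjusted p = 0.0343, against 7.84%). The receptor kinase gene GRK5 had -0.33 ± 0.12 on its brighter probe (limma adjusted p = 0.191) and 0.35 on another, so its direction was not settled.

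**Figure D4:**
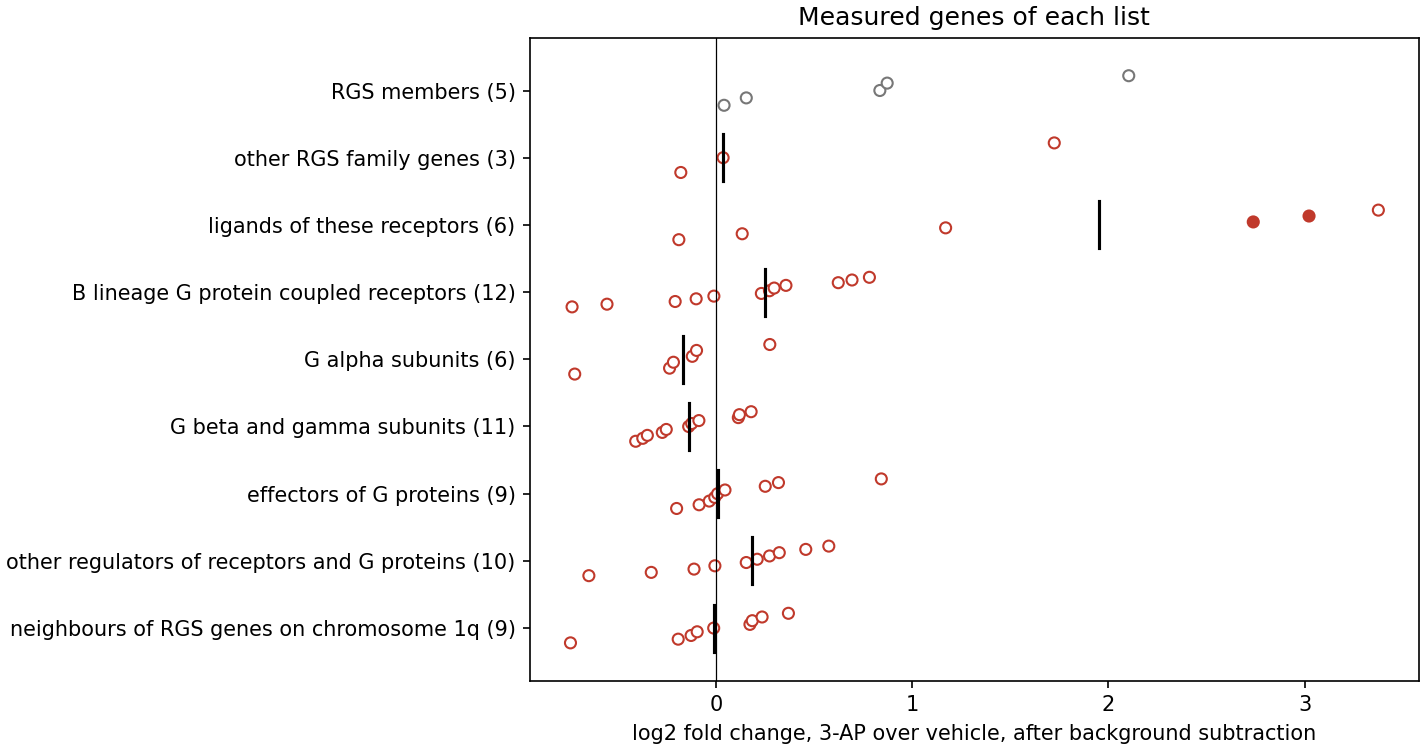
Log2 fold change of 3-AP over vehicle, after background subtraction, for the measured genes of each list (number in brackets), with a bar at the median. Filled points passed at an adjusted p under 0.05, the members, in grey and without a bar, are given without a test, and height within a list only separates the points. CCL3 and CCL3L1 are filled, and the alpha, beta and gamma subunits have medians of -0.17 and -0.14.

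Genes near the RGS genes on the long arm of chromosome 1 had a median of -0.01 over 9 measured genes. Of these 0 passed, against 0.342% of all features. DHX9, an RNA helicase gene near RGS16, had -0.74 ± 0.13 (SE, n = 3 pairs, limma adjusted p = 0.0870) and was the 1 of 9 that passed in the deposited table, at -0.58 (limma adjusted p = 0.0166, against 7.84%), with -0.29 on a dimmer probe. The glutamine synthetase gene GLUL had 0.23 ± 0.12 on its brightest probe (limma adjusted p = 0.295) and 0.07 and -0.34 on the others.

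The genes whose 6 log2 levels were most like those of RGS1 were ranked by Pearson correlation among 2712 named genes with a standard deviation of at least 0.5. They were GVINP1, a pseudogene of a large interferon-inducible GTPase, at 0.996, NUP62CL at 0.995, the lysosome positioning gene BORCS7 at 0.994, the actin-binding protein gene TRIOBP at 0.994 and the ciliary transport gene BBS1 at 0.993. The 6 arrays are 3 pairs that share a line and 2 groups that share an agent, so these values describe a shared order of arrays and carry no test. GVINP1 read 199.6 with vehicle and 290.1 with 3-AP in BCP1, 186.4 and 224.7 in BCBL1, and 302.0 and 604.4 in BC1. Like RGS1 it was lowest in BCBL1, highest in BC1, and higher with 3-AP in every line.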

How the data were processed

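Total RNA was labelled as cRNA for Illumina bead arrays, per the labels' protocols. The authors deposited a normalized table of linear intensity values for 6 arrays and a table before normalization with a detection p-value per probe, per the file headers; the software and normalization behind both are not given in these sources. In that second table the signals labelled BCP1 equalled the deposited BCBL1 values in 100% of probes. Those columns were not used.

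The normalized intensities were background-corrected with limma's nec function (offset 16) from the detection p-values. For this, BCP1 probes took, in order of signal, the averaged p-values of the arrays with their own. Quantile normalization over all arrays and a log2 transformation followed. Both steps can change a value, and the non-normalized signals, which would otherwise be the starting point, were an alternative. Of 47323 probes, 13 with a zero were left out, and probes above background on at least 3 arrays were kept (17997). Symbols came from the platform annotation, updated by gene ID (30113 probes with 1 symbol, 8 with several, 17202 unnamed). The kept probe with the highest mean stood for a gene, giving 14635 features.

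Features were fitted in R 4.3.3 with limma 3.58.1 (lmFit, eBayes), with cell line as a block, and adjusted by Benjamini-Hochberg at 0.05. Each line supplies its own vehicle array, per the labels, which is the source of the pairing. Deviations from the group means correlated at 0.71, 0.76 and 0.86 within BCP1, BCBL1 and BC1, and at 0.58 and 0.59 crossed between BCP1 and BCBL1. Crossed between BC1 and either other line, the values were -0.78 to -0.73. The group means include BC1, so these deviations largely set BC1 against the other lines. The values are therefore no test of the pairing. The fit had 2 residual and 3.20 prior degrees of freedom. The named genes are all members, called genes of each list or else the 2 with the smallest raw p, other RGS genes above background on any array, and the 5 genes most correlated with RGS1. The members and lists were chosen with earlier results of these data known. The number of arrays limits the precision.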

Additional observations from a re-analysis of the deposited data

Results flagged for a closer look

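RGS10 and RGS19 had log2 fold changes of opposite sign in different lines. The log2 fold change of RGS10 with 3-AP was 0.42 in BCP1, 0.14 in BCBL1 and -0.10 in BC1. That of RGS19 was 0.19 in BCP1, 0.18 in BCBL1 and -0.25 in BC1. Each value is 1 array against 1, the deposited table gave the same signs, and the difference between lines was not tested.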

How the results depend on the processing

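The count of features called with 3-AP, 50, depended on the processing. It was 1148 in the table as deposited, 650 with a background offset of 50, 654 where every array had to detect a probe at p under 0.01 (strict filter), 1252 with a variance trend, 10 with no detection filter and 21 in the non-normalized signals of BCBL1 and BC1. It was 10 with no replicate block, and 3 (without BC1), 20 (without BCP1) and 36 (without BCBL1) with a line left out. The log2 fold change of RGS1, 2.10, was 1.16 as deposited and 1.59 with the offset of 50, stayed at 2.10 without the block, and was 1.90 to 2.32 with a line left out. Its adjusted p, 0.0455, which is no test of a gene chosen on this change, was over the threshold in 5 of 11 alternatives: 0.677 with no block, 0.123 without BCP1, 0.0886 without BC1, 0.160 in the non-normalized signals and 0.0940 with no detection filter. The strict filter left RGS1 without a value. The count of features that differed between lines, 2960, was 0 without BC1 and up to 2852 with another line left out. The RGS1 difference between lines kept its call in 9 of the 10 alternatives that gave it a value, all but the one without BC1. Apart from the one with no detection filter, these used the same filter for low signal, which RGS1 passed only with the BC1 arrays. The 9 are therefore not independent support. RGS2 differed between lines under 4 alternatives (as deposited, offset of 50, strict filter, variance trend) and RGS10 under 2 (as deposited, variance trend). Of the changes of the other members with 3-AP, 47 of 48 moved by less than the spread between lines, and the exception was RGS2 as deposited (0.75). RGS19, near 0, took a negative value in 3 alternatives (-0.03 each). With 2 residual degrees of freedom, small changes were not detectable.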
